A study of Danio rerio with 6 samples.

Results

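The brightest transcripts on the array at 4 days post fertilisation (dpf) were followed from wild-type zebrafish embryos into homozygous *vhl* mutants. They are the 300 probes, of 41031 zebrafish probes in all, with the highest mean log2 processed signal over the 3 wild-type arrays. They were therefore selected on wild-type values, which are 1 side of the comparison made here, and their brightness is a description and not a finding. Group comparisons over them are likewise given as descriptions, beside the same counts over all probes. The brightness of a probe also depends on its sequence, so the order of the probes is not an order of transcript abundance.

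Each of the 6 samples was RNA from 30 pooled whole embryos, hybridised to its own one-colour Agilent array. The wild-type group (replicates 2, 3 and 4) and the *vhl* mutant group (replicates 1, 3 and 4) came from a TL/LWT mixed background at 4 dpf. The mutants were homozygous for the hu2117 allele of *vhl*, and per the methods the line also carried the Tg(phd3::EGFP)i144 reporter. All wild-type arrays lay on 1 slide and all *vhl* mutant arrays on another, so slide, scan and genotype cannot be told apart in any value below. Replicates measure the spread between pools, and 3 arrays per group limit the precision throughout.

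A few tissues fill the transcript pool of a 4 dpf larva. Skeletal muscle contributes contractile proteins, the lens contributes crystallins, the liver contributes secreted plasma proteins, the cone photoreceptors contribute opsins, and every cell contributes actin, ribosomal proteins and chaperones. The *vhl* product marks the α subunit of Hypoxia Inducible Factor (HIF) for degradation in normal oxygen. Without it HIF stays active, and the glycolytic enzymes are among its textbook targets.

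The prolyl hydroxylase gene *egln3*, a HIF target, lay between 8.80 and 8.98 on the log2 normalised scale in wild-type. In *vhl* mutants it lay between 15.32 and 16.02. It was named only through the study's table of changed genes, chosen for change in these same arrays. Its separation is therefore no independent check of the labels. No probe carried the symbol *vhl* here. Of 40 marker genes of the tissues expected in a whole larva, 8 had a named probe, all 8 were well above background on every array and 4 were among the 300. The red blood cell markers *hbae1.1*, named only from the table of changed genes, and *alas2* were not among the 300. They were higher in *vhl* mutants by 3.07 and 2.88 on the log2 scale (limma adjusted p = 0.00149 and 0.00268). The part of such a shift between cell types in the values below was not tested.

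The wild-type mean of the 300 probes ran from 15.95 to 18.54 on the log2 scale of the processed signal, against a median of 6.16 over all probes. The members just inside the limit were *krt91* at 15.96 and *mibp2* and an unnamed probe at 15.95, and the first 3 probes outside lay at 15.93, 15.93 and 15.92. All 300 were well above background on all 6 arrays and 0 spots were saturated. Most members (279) were read by 1 spot, 20 by 2 spots and 1 by 15 spots.

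Nearly as many of these probes were repeats of a pair of labels as were probes with an accession of their own. The array carried 90 probes labelled bactin, for beta-actin, the cytoskeletal actin present in nearly all cells, and all 90 were among the 300. It also carried 50 probes labelled P112404, a label that the sources used here do not explain, and all 50 were members as well. Both sets are marked as zebrafish probes and not as controls in the scanner files. The other 160 members had 160 distinct accessions and are called single probes here. Whether some of these accessions share a transcript was not tested. Of these, 78 (48.8%) were listed under full-length cDNA records, whose accessions begin with BC, against 22.9% of all probes.

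The bactin probes held ranks 2 to 96 on the wild-type arrays, with 5 other probes among them. Their median log2 processed signal, before any scaling, was 18.04, 18.01 and 18.11 on wild-type replicates 2, 3 and 4. It was 18.00, 18.09 and 18.26 on *vhl* mutant replicates 1, 3 and 4. The groups overlapped, with *vhl* mutant replicate 1 the lowest and replicate 4 the highest of the 6. Within an array the 90 probes had a standard deviation (SD) of 0.10 to 0.17 on the log2 scale, a measure of the spread between repeats of 1 label on the same RNA.

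The P112404 probes held ranks 178 to 246 in wild-type and 144 to 213 in *vhl* mutants. Their median processed signal was 16.57, 16.64 and 16.67 on the wild-type arrays and 16.95, 16.95 and 17.08 on the *vhl* mutant arrays. Each *vhl* mutant array lay above each wild-type array. The SD within an array was 0.05 to 0.09 on this scale and 0.10 to 0.24 after quantile normalisation. After quantile normalisation the 3 wild-type arrays averaged 16.62 ± 0.06 and the 3 *vhl* mutant arrays 16.92 ± 0.03 (mean over the probes of each array, then mean ± SD over arrays). The exact two-sided permutation test over arrays gave p = 0.1, the smallest that 3 arrays against 3 allow.

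**Figure D1:**
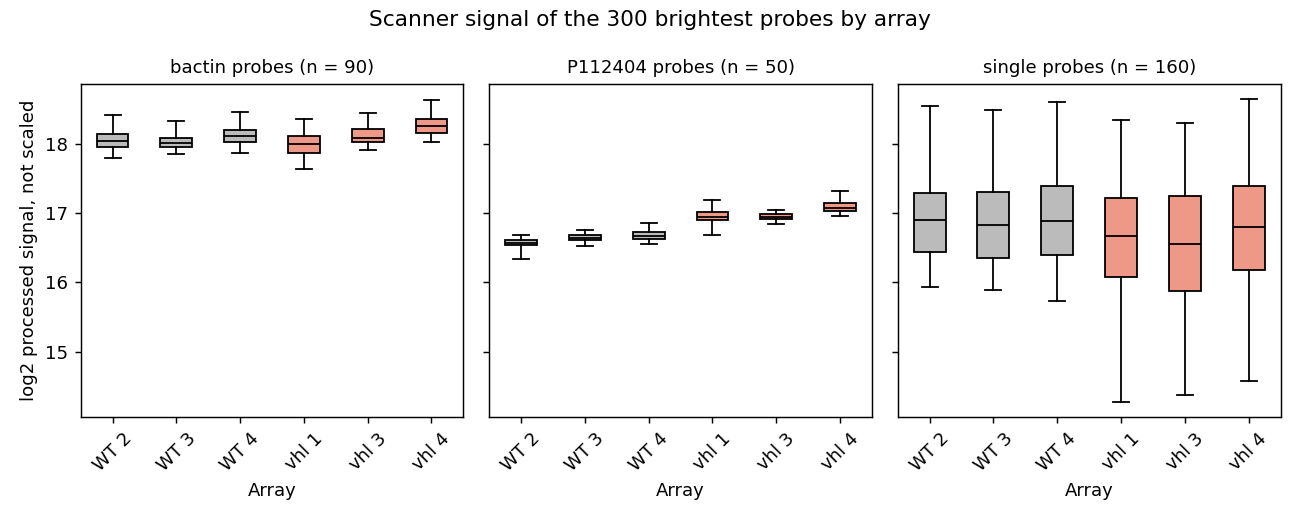
Log2 processed signal of the 300 members on each array, without scaling between arrays, for the 90 bactin, 50 P112404 and 160 single probes; boxes span the quartiles with the median as a line, whiskers reach the lowest and highest probe, wild-type (WT) arrays are grey and *vhl* mutant arrays red. The P112404 boxes are higher on every *vhl* mutant array (medians 16.95 to 17.08 against 16.57 to 16.67), and the bactin boxes overlap. The lower end of the single probes lies at 15.73 to 15.94 in wild-type and at 14.28 to 14.58 in *vhl* mutants. Members were chosen on the wild-type values of this same signal, so the wild-type lower end is set in part by that choice.

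The direction of both repeated sets turned on the scaling. The median log2 fold change (*vhl* mutant over wild-type) of the bactin probes was −0.02 under quantile normalisation, 0.27 under cyclic loess, 0.38 for processed signals divided by their 75th percentile and −0.38 with E1A spike-in scaling after removal of 2 spots of very high local background on *vhl* mutant replicate 3. The 90 probes occupy nearly all of the top ranks on each array, and quantile normalisation gives those ranks the same values on every array (bactin medians of 18.07 to 18.08), so their fold change is close to 0 by construction. The P112404 median was 0.28, 0.65 and 0.69 under the first 3 of these scalings and −0.04 under the last. Relative to the median of all probes under the same scaling it was 0.28 to 0.65 in these 4, and −0.19 where those 2 spots were kept and normexp was followed by 75th percentile, E1A or no scaling. The bactin median relative to all probes was −0.02, 0.26, 0.06 and 0.06 in these 4. It was −0.52 in the settings just named that kept those 2 spots. No direction is given here for bactin.

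**Figure D2:**
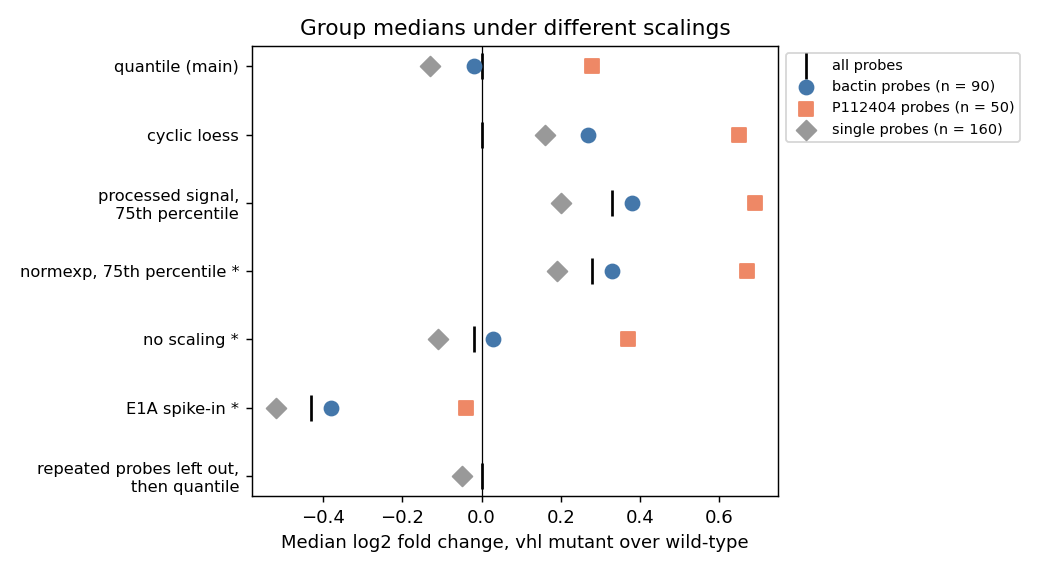
Median log2 fold change, *vhl* mutant over wild-type, of all probes (black bars) and of the 3 kinds of member under 7 scalings; an asterisk marks scalings after removal of the 2 spots of high local background. The medians of the 3 kinds of member shift with the scaling, P112404 lies to the right of all probes in each scaling that includes it (0.28 against 0.00 under quantile normalisation), and the single probes lie to the left except under cyclic loess (0.16 against 0.00).

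Most of the brightest probes kept their place in the mutant. Of the 300 members, 275 were also among the 300 brightest probes of the *vhl* mutant arrays, including all repeats and 135 of the single probes, and the last member ranked 513 there. Of the 25 members that left, 22 were lower in *vhl* mutants at an adjusted p of 0.05 and 10 were also at least 2-fold lower at 0.01. Of the 25 probes that entered in their place, 16 were higher at 0.05 and 8 passed the stricter limit. Leaving and entering were defined by rank on the *vhl* mutant arrays, so these directions follow in large part from the choice. Over all probes, 12.7% were lower and 11.7% higher at 0.05, and 1.55% and 1.67% at the stricter limit.

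Of the probes that entered, 8 had a symbol, and those given here were named after their values were seen. Entry already required a rise in rank, so the p-values of this paragraph are a description. The lactate dehydrogenase gene *ldha* moved from rank 558 to 273 (log2 fold change 1.74, standard error (SE) 0.09, adjusted p = 0.000623). The glucose-6-phosphate isomerase gene *gpia* moved from 335 to 215 (1.41, SE 0.07, adjusted p = 0.000656), and the embryonic beta-globin gene *hbbe2* from 462 to 158 (2.16, SE 0.16, adjusted p = 0.00109). All 3 were named only through the table of changed genes of the study. Of the 5 named otherwise, the muscle actin gene *actc1a* (from 15.26 to 16.36, adjusted p = 0.00136) and the glycolytic gene *gapdhs* (1.11, SE 0.19, adjusted p = 0.00894) passed the 2-fold limit. The keratin gene *cyt1l* (0.64, adjusted p = 0.00684) and the lens gene *crybb1l2* (0.47, adjusted p = 0.0168) rose by less.

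At an adjusted p of 0.01 with a 2-fold limit, 0 members were called higher, where 1.67% of all probes were, and 12 members (4% of the 300) were called lower, where 1.55% of all probes were. With no limit on the fold and an adjusted p of 0.05, 52 members (17.3%) were higher and 49 (16.3%) lower, against backgrounds of 11.7% and 12.7%. Those backgrounds include undetected probes, and over the 27303 probes well above background the shares at 0.05 were 17.2% higher and 18.7% lower, close to or above those of the members. At 0.01 with the 2-fold limit, 2.52% of these 27303 probes were higher and 2.33% lower. No member reached a 2-fold rise at any p. The highest log2 fold change was 0.83, in 1 of the P112404 probes. At an unadjusted p of 0.05 in the same limma fit 90 members were higher and 70 lower. The 2 groups of arrays did not overlap for 206 members (68.7%), against 43.8% of all probes and 54.9% of those well above background. Of the 206, 58 were bactin probes, 45 P112404 probes and 103 single probes (64.4% of 160). Over the 300 probes next in rank the share was 57%. Since the members were chosen on the wild-type level, these shares are a description: members chosen in the same way on all 6 arrays gave 4 called higher and 6 lower, and members chosen on the *vhl* mutant arrays 8 and 2.

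The single probes and the repeats contributed differently. All 12 called members were single probes (7.5% of 160). At 0.05 the single probes gave 19 higher and 49 lower (11.9% and 30.6%). The shares were 13.3% and 28.3% over the 300 probes next in rank, and 11.7% and 12.7% over all probes. Bactin gave 8 higher and P112404 25 higher, with 0 lower in either. Repeats of 1 label are not separate transcripts, so their 33 calls count as 2 labels at most. Log2 fold changes ran from −0.18 to 0.28 over the 90 bactin probes and from 0.02 to 0.83 over the 50 P112404 probes. Repeats of 1 label on the same RNA therefore differed in fold change. The SE given for a probe is taken over arrays and does not measure that spread between probes. The median log2 fold change was −0.13 over the single probes against 0.00 over all probes. It was −0.15 over the 300 probes next in rank, of which 7 were called higher and 18 lower. With the repeats left out before normalisation, the 160 single probes gave 26 higher and 36 lower at 0.05 and a median of −0.05.

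The single probes varied little between arrays of a group on the normalised scale. Quantile normalisation gives each rank the same value on every array, so SDs at the top ranks are held down in part by construction. Their median SD on the normalised scale was 0.06 over wild-type and 0.10 over *vhl* mutant arrays, against 0.10 and 0.16 over all probes well above background. The member with 15 spots, *rps19*, had an SD between its spots of 0.04 to 0.10 within an array.

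**Figure D3:**
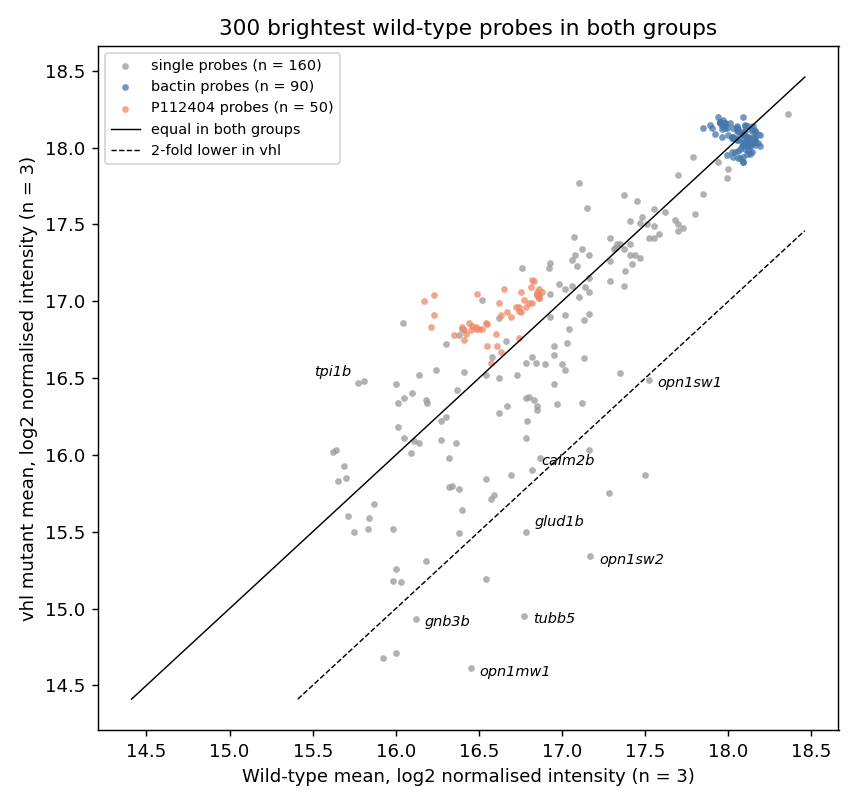
Mean log2 normalised intensity of each of the 300 members in wild-type (x axis) and *vhl* mutants (y axis), n = 3 arrays each; bactin probes are blue, P112404 probes orange and single probes grey, the solid line marks equal means and the dashed line a 2-fold lower mean in *vhl* mutants. The 12 points below the dashed line all passed the adjusted p of 0.01, among them *opn1mw1*, *opn1sw2*, *tubb5*, *glud1b*, *gnb3b* and *opn1sw1*, and no point lies 2-fold above the solid line.

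A gene symbol was available for 26 members, all single probes. Of these, 12 came from RefSeq accessions, 8 from the full probe table of the study and 6 from its table of changed genes. That last source was chosen by the study for change in these same arrays, and all 6 of its members passed at 0.05, so the named members lean towards change. Of the 134 single probes without a symbol, 17 (12.7%) were higher and 36 (26.9%) lower at 0.05. The shares were 11.7% and 12.7% over all probes, and 13.3% and 28.3% over the 300 probes next in rank. The symbols of 4 members were updated to current ones.

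Photoreceptor genes made up 4 of the 6 named members that were called lower. The opsins are the light-absorbing proteins of photoreceptors, and *opn1mw1*, *opn1sw2* and *opn1sw1* encode the green, blue and ultraviolet cone opsins. All 3, with *gnb3b*, a transducin β subunit that relays the opsin signal in cones, were called lower. These are the 4 members in the list of opsins and phototransduction genes, but *opn1sw2*, *opn1sw1* and *gnb3b* were named only through the table of changed genes, so a count of 4 of 4 is fixed in part by how they were named. Only *opn1mw1* was named independently of that table.

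The green cone opsin gene *opn1mw1* had log2 normalised intensities of 16.47, 16.57 and 16.30 in wild-type and of 14.87, 14.46 and 14.50 in *vhl* mutants. The highest mutant array lay far below the lowest wild-type array. The mean fell by 1.84 (SE 0.13) on the log2 scale, a 3.57-fold difference (limma adjusted p = 0.000993). Its RefSeq neighbour *opn1mw2* is a copy of the gene, and whether the probe also binds the copies was not tested. The probes of *opn1mw2* and *opn1mw3* were dimmer, with means of 10.75 and 6.72 in wild-type, and did not pass (adjusted p = 0.901 and 0.0646).

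The blue cone opsin gene *opn1sw2* read 17.18, 17.13 and 17.19 in wild-type against 15.38, 15.24 and 15.41 in *vhl* mutants. It fell by 1.82 (SE 0.07; 3.54-fold, adjusted p = 0.000357), the smallest p among the named members. The ultraviolet opsin gene *opn1sw1* was the brightest of this list and read 17.56, 17.57 and 17.44 against 16.58, 16.45 and 16.45. It fell by 1.03 (SE 0.07; 2.05-fold, adjusted p = 0.00098), so its change was smaller than those of the other 2 opsins in size, a difference between genes that was not tested. For *gnb3b* the values were 16.01, 16.16 and 16.20 against 15.22, 14.70 and 14.86, a fall by 1.19 (SE 0.14; adjusted p = 0.00315).

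In these whole-embryo samples fewer photoreceptors and less opsin RNA per photoreceptor cannot be told apart. Outside the 300, the same list had 17 named probes, of which 10 were lower and 3 higher at 0.05. Among those lower was *gnat2*, the cone transducin α subunit, named from its RefSeq accession, which went from 15.56 to 14.16 (adjusted p = 0.00139), and among those higher was *rlbp1a*, a retinaldehyde-binding protein of the retina named only from the table of changed genes (10.98 to 12.17, adjusted p = 0.00156). The cone transducin γ subunit gene *gngt2a*, also named only from that table, went from 9.07 to 11.09 (log2 fold change 2.02, adjusted p = 0.00515), opposite to *gnat2* and *gnb3b*. Over all 21 named probes of the list the median log2 fold change was −1.11. Over the 12 named without the table of changed genes it was −0.91, with 7 lower and 1 higher. The shares were 12.7% and 11.7% over all probes, and 18.7% and 17.2% over those well above background.

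Tubulin and calmodulin genes formed the next group of falls. Tubulin α and β subunits form microtubules and are abundant in growing neurons. The β-tubulin gene *tubb5* read 16.86, 16.68 and 16.78 in wild-type and 15.13, 14.99 and 14.74 in *vhl* mutants, and fell by 1.82 (SE 0.12; 3.53-fold, adjusted p = 0.000792). The α-tubulin gene *tuba1c*, listed as *tuba1l* by the study, read 16.93, 16.86 and 16.83 against a mean of 15.98 ± 0.02 (SD, n = 3), and fell by 0.89 (SE 0.06; adjusted p = 0.000888). The calmodulin gene *calm2b* encodes a calcium sensor of all cells that is abundant in brain. It fell by 0.92 (SE 0.08; adjusted p = 0.00139), from 16.85, 16.81 and 16.80 to 16.03, 15.86 and 15.80. None of the 3 had overlapping groups. Tubulins and calmodulins are families of near-identical copies, and how far the probes separate the copies was not tested.

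The cytoskeleton list had 3 members, of which 2 were lower and 0 higher, and its 13 named probes outside the members gave 8 lower and 0 higher. The 11 named without the table of changed genes gave 5 lower and 0 higher. The list of neuronal and glial genes had 3 members, all lower, and among its other 41 named probes 18 were lower and 5 higher at 0.05. Of these 3 members, *tubb5* and *calm2b* were named only from the table of changed genes, and *tubb5* and *tuba1c* are also the 2 lower members of the cytoskeleton list. Over the 35 probes of the neuronal list named without that table, 14 were lower and 3 higher. The shares were 12.7% and 11.7% over all probes, and 18.7% and 17.2% over those well above background. The keratin *krt91*, an intermediate filament gene of skin counted with the cytoskeleton, read 15.97 to 16.36 in wild-type and 15.95 to 16.27 in *vhl* mutants. Its groups overlapped (adjusted p = 0.779).

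Glutamate dehydrogenase and a chromatin gene also fell. The mitochondrial glutamate dehydrogenase gene *glud1b* read 16.89, 16.81 and 16.64 in wild-type and 15.08, 15.63 and 15.78 in *vhl* mutants, with *vhl* mutant replicate 1 the lowest. It fell by 1.29 (SE 0.19; 2.44-fold, adjusted p = 0.00591). The gene *hmga1a* encodes a chromatin-binding protein of dividing cells. It read 16.41, 16.20 and 16.53 against 16.03, 15.71 and 15.59, and fell by 0.60 (SE 0.14; adjusted p = 0.0269). That call was lost in 9 of 23 alternatives, among them leaving out wild-type replicate 2 or 4 or *vhl* mutant replicate 3 or 4.

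Antitrypsin genes, whose products the liver secretes into plasma, fell. The antitrypsin gene *serpina1* encodes a secreted protease inhibitor. It read 16.20, 16.29 and 16.04 in wild-type and 15.50, 15.11 and 15.31 in *vhl* mutants, and fell by 0.87 (SE 0.12; adjusted p = 0.00468). Its neighbour and copy *serpina1l* read 16.08, 16.08 and 15.84 against 15.35, 14.99 and 15.43, and fell by 0.74 (SE 0.14; adjusted p = 0.0121), and signal shared between the pair was not tested. The call of *serpina1l* was lost in 6 of 23 alternatives, among them leaving out wild-type replicate 3. The apolipoprotein B gene *apobb.1*, the protein of lipoprotein particles, was the brightest of the list at 17.32, 17.29 and 17.27 in wild-type against a mean of 17.41 ± 0.12 (SD, n = 3). Its groups overlapped, with a log2 fold change of 0.11 (SE 0.08; adjusted p = 0.337).

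Of the 4 liver and plasma members 2 were lower at 0.05. Among the 57 other named probes of that list 14 were higher and 12 lower. Over the 47 probes of the list named without the table of changed genes, members included, 8 were higher and 7 lower. Over all probes 11.7% were higher and 12.7% lower, and 17.2% and 18.7% of those well above background. The counts therefore give no direction for the list.

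The glycolytic enzyme gene *tpi1b*, which encodes triosephosphate isomerase, rose. Values of *tpi1b* were 15.77, 15.87 and 15.79 in wild-type against 16.47, 16.56 and 16.42 in *vhl* mutants, and the lowest mutant array lay above the highest wild-type array. The rise was 0.68 (SE 0.07; 1.6-fold, limma adjusted p = 0.00207).

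A dimmer *tpi1b* probe outside the members rose by 1.06 (SE 0.17; adjusted p = 0.00742). Of the 14 glycolysis probes outside the members, 10 were higher and 4 lower at 0.05. They include *pfkfb3*, from the table of changed genes, which makes an activator of phosphofructokinase, at 10.39 in wild-type and 14.29 in *vhl* mutants (adjusted p = 0.00217), and *pklr*, the liver and red cell pyruvate kinase, which went the other way from 14.99 to 12.69 (adjusted p = 0.00111). Over the 8 glycolysis probes named without the table of changed genes, 5 were higher and 3 lower. The shares were 11.7% and 12.7% over all probes, and 17.2% and 18.7% over those well above background. Under E1A spike-in scaling the change of *tpi1b* was −0.07, where the median of all probes was −0.09. With the 2 spots of high local background removed, the change of *tpi1b* was 0.16, where that median was −0.43.

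**Figure D4:**
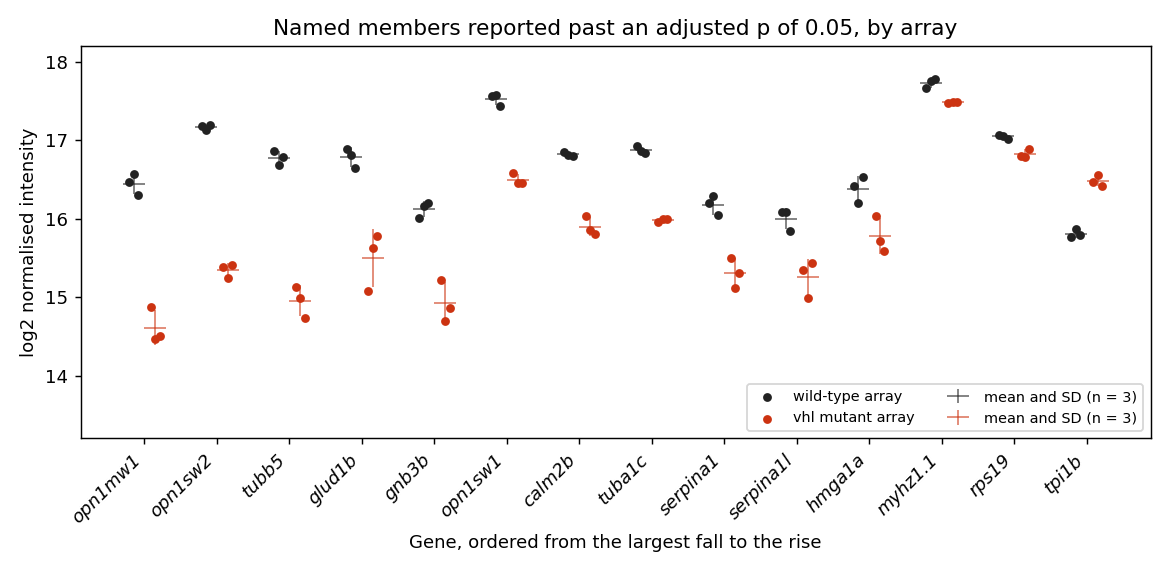
Log2 normalised intensity on each array of 14 named members past an adjusted p of 0.05, ordered from the largest fall to the rise; points are arrays (black wild-type, red *vhl* mutant), and crosses give the mean and SD (n = 3). The 2 groups do not overlap for any of the 14, the falls reach from 1.84 (*opn1mw1*) down to differences as small as that of *rps19*, and *tpi1b* is the one that rises.

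Of the 4 members in the muscle list, 1 passed at 0.05 and 0 at the 2-fold limit. Fast skeletal muscle is the bulk of the larval trunk, and *myhz1.1* encodes its myosin heavy chain and *mylpfa* its regulatory light chain. The values of *myhz1.1* were 17.66, 17.75 and 17.78 in wild-type and 17.47, 17.49 and 17.48 in *vhl* mutants, a fall by 0.25 (SE 0.06; adjusted p = 0.0305) that turned to a difference of 0.15 for processed signals divided by their 75th percentile and of 0.02 under cyclic loess. The call was lost without a change of sign in 12 further alternatives of 23, among them leaving out wild-type replicate 3 or 4 or *vhl* mutant replicate 3 or 4. Its neighbour *myhz1.2* is a copy of the gene, and shared signal was not tested. Values of *mylpfa* were 17.24, 17.15 and 17.10 against 17.29, 17.40 and 17.23, with overlapping groups and a log2 fold change of 0.14 (SE 0.08; adjusted p = 0.23). The muscle actin gene *acta1b* and the myosin binding protein gene *mybphb* (listed as *zgc:165344*), named after their values were seen, also overlapped (adjusted p = 0.868 and 0.75). Among the 44 other named probes of the muscle list 10 were higher and 15 lower at 0.05, and 7 and 9 passed the 2-fold limit at 0.01. Over the 34 probes of the list named without the table of changed genes, members included, 4 were higher and 8 lower at 0.05. Of these 34, 1 was higher and 2 were lower at the stricter limit. Over all probes 11.7% were higher and 12.7% lower at 0.05, and 1.67% and 1.55% at the stricter limit.

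Several other bright named genes did not pass the test. The cytosolic chaperone gene *hsp90ab1* was the brightest named member, at rank 7 in wild-type and 23 in *vhl* mutants, with values of 18.08 to 18.23 and of 18.02 to 18.15 (adjusted p = 0.415). The mitochondrial ADP/ATP carrier gene *slc25a5* read 17.25 to 17.35 and 17.27 to 17.43 (adjusted p = 0.731). The gene of the ribosomal scaffold protein *rack1*, listed as *gnb2l1*, read 17.31 to 17.34 and 17.28 to 17.46 (adjusted p = 0.851). In all 3 the groups overlapped.

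The ribosomal protein gene *rps19* read 17.07, 17.05 and 17.02 in wild-type and 16.80, 16.78 and 16.89 in *vhl* mutants. It fell by 0.22 (SE 0.06; adjusted p = 0.0487), a change of 1.17-fold just inside the limit of 0.05 that lay outside it or on the other side of 0 in 20 of 23 alternatives. Of the 11 other named probes of this list, 6 were lower and 1 higher at 0.05, where 12.7% and 11.7% of all probes were. Most of the 11 are mitochondrial ribosomal protein genes, and *rps6ka4* is a kinase gene. The count therefore gives no direction for cytosolic ribosomal protein genes such as *rps19*.

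The 2 members in the lens crystallin list did not pass. The gene *cryba1b* encodes a β-crystallin, a structural protein of the lens fibres, and read 17.38 to 17.53 in wild-type and 17.18 to 17.35 in *vhl* mutants. The groups did not overlap, but the adjusted p was 0.138. A second β-crystallin gene, *crybb1*, named after its values were seen, read 15.56 to 15.74 against 15.79 to 16.27 (adjusted p = 0.0794). Among the list's 14 other named probes 3 were higher and 5 lower at 0.05, among them *crygn2*, which rose by 4.17 on the log2 scale (adjusted p = 0.000383), and *cryaa*, which fell by 1.24 (adjusted p = 0.0145). The list matches names by pattern. Those lower include *cryl1*, *hspb8* and *hspb15*, which are not lens crystallins, and those higher are *crygn2*, *crygm1* and *crybb1l2*. Over the 12 probes of the list named without the table of changed genes, members included, 2 were higher and 2 lower. Over all probes 11.7% were higher and 12.7% lower at 0.05. The muscle gene *mibp2*, at the edge of the 300, read 15.66 to 15.71 against 15.81 to 16.08 (adjusted p = 0.0905).

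Of the probes without a symbol, 6 were called lower. The probe with the largest fall, CUST_4249_PI415676714, read 17.46, 17.45 and 17.59 in wild-type and 15.63, 15.93 and 16.04 in *vhl* mutants, and fell by 1.63 (SE 0.12; 3.1-fold, adjusted p = 0.00101). CUST_4241_PI415676714 fell by 1.53 (SE 0.12; 2.89-fold, adjusted p = 0.00126), from 17.18, 17.20 and 17.47 to 15.55, 15.83 and 15.87. In both, all mutant arrays lay below all wild-type arrays.

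The largest rises among unnamed members were of the size of *tpi1b*. CUST_8597_PI415676703 read 15.82, 15.77 and 15.72 in wild-type and 16.44, 16.46 and 16.50 in *vhl* mutants, a rise of 0.70 (SE 0.06; adjusted p = 0.0014). CUST_3655_PI415676703 read 17.20, 17.03 and 17.06 against 17.69, 17.80 and 17.84, a rise of 0.68 (SE 0.08; adjusted p = 0.00288). In neither did the groups overlap.

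The 12 called falls differed in how they stood up to other processing. The fold changes of all 12 stayed negative in all 23 alternatives of scaling, filtering and leaving out an array, that of *opn1mw1* ranging from −1.54 to −2.61. The call of *opn1sw2* was kept in 21. The calls of *opn1mw1* and *tubb5* were kept in 20. That of *glud1b* was kept in 12, the fewest, and those of *gnb3b* and *opn1sw1* in 14 each. Leaving out wild-type replicate 3 or wild-type replicate 4 lowered the number of calls from 12 to 7.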

How the data were processed

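RNA of 30 pooled embryos per sample was measured on 6 one-colour arrays. Per the file headers, the deposited scanner values are intensities from the software Feature Extraction (10.7.3.1, Agilent), namely the median pixel brightness of spot and local background, not normalised, and the processed signal, background-subtracted within each array by the software. The deposited series table holds the same processed intensity, rounded. Spot flags are codes. The authors' methods name limma (3.24.10 in the submitters' processing notes) with normexp, quantile normalisation, averaging of spots, p of 0.01 and a 2-fold limit. The authors' own fold changes and p-values, in the study's probe tables, were not used.

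The same steps were run with limma 3.58.1 in R 4.3.3 (offset 50, outlier spots removed, lmFit and eBayes on log2 intensities, Benjamini-Hochberg adjustment over 41031 probes). The fit was tested on simulated data. Median brightness replaced the planned mean. Symbols came from RefSeq accessions (assembly GRCz12tu, names only) or the pairing of probe and symbol in the study's tables, and 3159 probes had one. The named genes are the 12 largest rises and 12 largest falls past an adjusted p of 0.05 without overlap, the 10 brightest, the brightest and most changed member of each list with 3 or more, and 2 unnamed probes each way. The members and lists were chosen with earlier results of these data known. Lists match names by pattern, and a few entries are not of the process named. No list was tested as a set, and the globin, matrix, translation factor and redox lists had 0 members. Alternatives covered signal, background, scaling, filters, each array left out, a replicate block and the choice of members. One named member is not reported here.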

Additional observations from a re-analysis of the deposited data

How the results depend on the processing

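The limits lie in the scaling, the naming and the number of arrays. Only 26 of 300 members had a symbol, slide and genotype cannot be told apart, no spot was saturated, and the mean pixel brightness alternative was not run. Of 140 alternative values of the counts, medians and overlaps over the members, 82 stayed within their limits and 58 moved. The members also among the 300 brightest of the *vhl* mutant arrays numbered 273 when chosen on normalised wild-type intensity. Choice on all 6 arrays, which include the *vhl* mutant arrays, gave 289. Scaling each array to its 75th percentile does not change ranks, and members chosen on the *vhl* mutant arrays overlap fully by definition. The 275 and 300 of those choices were therefore fixed in advance. The causes of the changes below were not tested unless the construction gives them.

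Called higher members went from 0 to 1 with the processed signal or the series table scaled to the 75th percentile, 3 under cyclic loess, and 4 or 8 when members were chosen on all 6 arrays or on the *vhl* mutant arrays. Called lower members went from 12 to 7 with the processed signal or series table, 0 with normexp and 75th percentile scaling or no normalisation, 31 under E1A spike-in scaling, and 6 or 2 under those choices. Without 1 array each they ranged from 7 to 14, and higher calls were 0 throughout.

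Members higher at 0.05 went from 52 to 123 with the processed signal or series table, 34 without background correction, 28 with offset 16, and 0 with normexp and 75th percentile scaling, no normalisation or E1A scaling. Leaving out 1 array gave 14 to 53, with 26, 25 and 24 without wild-type replicates 2, 3 and 4, and 14 and 32 without *vhl* mutant replicates 3 and 4. Members lower at 0.05 went from 49 to 20, 20, 1 and 0 under the processed signal, series table, normexp with 75th percentile scaling and no normalisation, 26 under cyclic loess and 27 when chosen on the *vhl* mutant arrays, and ranged from 33 to 53 without 1 array. The median log2 fold change of −0.01 became 0.35 with the processed signal or series table, 0.18, 0.02, 0.28 and −0.62 under normexp with 75th percentile scaling, no normalisation, cyclic loess and E1A, and 0.03 or 0.04 for members chosen on all 6 or on the *vhl* mutant arrays. It was −0.02 to 0.00 without 1 array. The median of all probes moved to 0.33, 0.71, 0.56 and −0.09 under the processed signal, normexp with 75th percentile scaling, no normalisation and E1A.

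Chosen after seeing the data, removal of the 2 high-background spots on *vhl* mutant replicate 3 gave 3 called higher and 10 called lower with normexp and 75th percentile scaling. At 0.05 it gave 185 higher and 29 lower there, with a median of 0.32. Without normalisation the removal gave 16 called lower, 53 higher and 41 lower at 0.05, and a median of 0.02. With the spots kept, the called lower members were 0 under both of these settings. Under E1A the removal gave 32 lower, 0 higher at 0.05 and a median of −0.39. Leaving the 140 repeats out before normalisation gave 26 higher and 36 lower at 0.05 over the 160 left, 11 called lower and a median of −0.05. In the main setting the same 160 probes gave 19 higher and 49 lower at 0.05, 12 called lower and a median of −0.13. Averaging each set of repeats into 1 before choosing gave 4 higher, 19 lower, 88 lower at 0.05 and a median of −0.14.

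Same-numbered arrays did not deviate together (correlations of 0.00 and 0.03 for numbers 3 and 4), so the numbers were not taken as pairs. With the replicate block, 1 member was called lower, 16 were higher at 0.05 and the median was 0.01. Number 1 occurs only among *vhl* mutant arrays and number 2 only among wild-type arrays. The blocked comparison therefore rests on the arrays numbered 3 and 4 alone, and its fewer calls also reflect fewer arrays.

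Among named genes, *myhz1.1* reversed to 0.15, 0.15, 0.02 and 0.06 with the processed signal, the series table, cyclic loess, and normexp with 75th percentile scaling after spot removal. Under E1A scaling without and with spot removal *apobb.1* became −0.51 and −0.28 and *mylpfa* −0.50 and −0.27. In the same order *tpi1b* was −0.07 and 0.16. The fall of *rps19* turned to 0.19 with the processed signal and with the series table, 0.02 with normexp and 75th percentile scaling, 0.16 with the same after spot removal, and 0.14 under cyclic loess.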
